A study of Mus musculus with 3 samples.

Results

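The 10 genes described here encode subunits of AP-1, and were taken by symbol from 23337 gene symbols measured in CD4+ T cells labelled Th1, the interferon gamma producing T helper subset. They are the FOS family (Fosl2, Fos, Fosb and Fosl1), the JUN family (Jun, Junb and Jund), the BATF genes (Batf and Batf3) and Atf3. Each of the 10 symbols had 1 row in every table. The tumour group was 1 library, from cells of B16-F10 tumours, a transplantable melanoma line derived from C57BL mice. The lymphoid group was 2 libraries, titled as spleen but with a tissue label that also lists lymph nodes and draining nodes. All the mice were wild-type C57/Bl6j animals aged 7 weeks. The labels do not say how many animals gave each library, whether cells were pooled, or whether the 2 lymphoid libraries came from separate animals, so that a p-value measures the spread between those libraries, which may be technical. RNA came from 300000 cells a sample.

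AP-1 is a dimer of basic leucine zipper (bZIP) proteins that binds DNA at sites within the pattern TGANTCA, where N is a variable base. FOS proteins cannot pair with themselves and commonly take a JUN partner, while JUN proteins can also pair with each other. In T cells AP-1 forms downstream of antigen receptor and costimulatory signals through MAP kinases. It binds composite sites with NFAT at cytokine genes, and dimers of BATF with JUN proteins bind composite sites with IRF4 or IRF8. FOS and FOSB carry transactivation domains that FRA-1 and FRA-2, the products of Fosl1 and Fosl2, lack.

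The label of the cells was checked against fixed markers. The 9 T cell markers in the tables summed to 699.1 scaled FPKM in the tumour library, against 723.0 and 742.5 in lymphoid libraries 1 and 2, and 0 of the 9 were called. FPKM is a fragment count set against transcript length and library depth, and scaled FPKM is that value divided by the library's median-of-ratios size factor. Of the 8 Th1 markers, all of them tested, 0 were called higher and 2 lower (Ifng and Cxcr6). Of all tested genes 12.7% were called higher and 9.17% lower. The Ifng call rested on about 10 tumour fragments. It was lost with the estimated counting error of the tumour library added (limma adjusted p = 0.205). The 11 macrophage and monocyte markers summed to 11.1 scaled FPKM in the tumour library, against 1.56 and 1.49 in the lymphoid libraries. Of these 2 were at 0 in the tumour library, and the highest there was at 3.95. The 9 melanocyte markers summed to 4.43 in the tumour library, against 2.44 and 2.77. Of these 2 were at 0 in the tumour library, and the highest there was at 1.49. The 7 fibroblast markers summed to 1.93 in the tumour library, against 0.0765 and 0.262. Of these 3 were at 0 in the tumour library, and the highest there was at 1.04. In the tumour library 4 of 6 B cell and 4 of 7 neutrophil markers were at 0. The 2 CD8 T cell markers summed to 5.27 in the tumour library, against 0.558 and 0.814, the 7 neutrophil markers to 4.68, against 0.503 and 0.544, and the 7 dendritic cell markers to 3.69, against 1.21 and 1.17. B cell, NK cell, endothelial and erythroid marker sums were at most 17.7 in the tumour library, against at most 24.2 in either lymphoid library. Most of the NK cell sum was Klrb1c, at 13.4 in the tumour library, against 23.6 and 20.1. Most of the endothelial sum was Pecam1, at 7.70, against 9.76 and 8.80. Every other marker of these NK cell and endothelial lists was higher in the tumour library than in both lymphoid libraries, at low levels. In the CD8 T cell, macrophage and neutrophil lists 1 marker each was tested, and each was called higher. These were Cd8b1, Itgam and Cxcr2, at 4.77, 3.95 and 3.45 scaled FPKM in the tumour library. The 1 tested erythroid marker, Hba-a1, was called lower. Genes this low can pass the filter for testing (a mean of at least 1 FPKM) through the group where they are high. Such calls can therefore be partly fixed in advance. The part of these markers in the results below was not tested.

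Depth, estimated from the smallest steps between low values, was about 3270000 fragments in the tumour library, against 11460000 and 15630000 in lymphoid libraries 1 and 2. The mean over 1390 odorant and vomeronasal receptor genes, which T cells are not known to use, with the 29 of highest mean left out, was 0.261 scaled FPKM in the tumour library, against 0.0100 and 0.0434 in the lymphoid libraries. The part of this background in low values was not tested. Across all 9800 tested genes (mean of at least 1 FPKM), limma with Benjamini-Hochberg adjustment called 1246 genes higher, which is 12.7%, and 899 lower, which is 9.17%, in tumour than in lymphoid cells at an adjusted p under 0.05. The fit has 1 residual degree of freedom, from the lymphoid libraries, and assumes that the lone tumour library varies as they do. As deposited, without scaling, the median log2 change of all tested genes was -0.96, and after scaling it was -0.01, so each change given is relative to that of the median gene.

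RefSeq (GRCm38.p6) start sites were found for 9 of the 10 genes, and 250 bases before each were searched on both strands for motifs that AP-1 and its relatives bind. Windows of 180 bases are shown for Junb, the member with the highest level in every library, and for Fos and Jun. The shares of AP-1 RNA of Fos and Jun were lower in the tumour library than in both lymphoid libraries. Those of Jund and Fosb were also lower than in both, and their windows are not shown. Capitals mark the CRE half-site TGACG on either strand, and in Jun the distal and proximal AP-1-like sites TTACCTCA and TGACATCA. Each window runs 5′ to 3′ on the gene's own strand and ends at the base before the start site.
Junb, chr8:84978749-84978928, minus strand: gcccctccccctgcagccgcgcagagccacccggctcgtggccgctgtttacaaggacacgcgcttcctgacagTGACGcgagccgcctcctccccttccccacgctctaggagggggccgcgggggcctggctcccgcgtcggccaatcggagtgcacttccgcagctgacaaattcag
Fos, chr12:85473710-85473889, plus strand: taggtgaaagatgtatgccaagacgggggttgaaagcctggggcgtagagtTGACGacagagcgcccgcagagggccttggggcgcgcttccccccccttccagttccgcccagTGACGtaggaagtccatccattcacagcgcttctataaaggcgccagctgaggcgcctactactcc
Jun, chr4:95052223-95052402, minus strand: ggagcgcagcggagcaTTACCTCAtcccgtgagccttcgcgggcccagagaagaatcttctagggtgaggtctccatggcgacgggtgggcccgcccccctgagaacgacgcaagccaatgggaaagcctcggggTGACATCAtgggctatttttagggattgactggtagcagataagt

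The AP-1 pattern TGANTCA, with any base taken at N, was in 0 of the 9 upstream windows. It was in 6.75% of 32851 RefSeq promoter windows of the same length. The full CRE TGACGTCA was also in 0 of 9, against 1.55% of all windows. The CArG box, to which serum response factor binds, was in 0 of 9, against 1.47%. Bases farther upstream than 250 were not searched, so a CArG box there, in Fos or another member, would not be seen. The half-site TGACG, which the full CRE contains, was in 5 of 9 (Fos, Fosb, Junb, Batf and Atf3), against 17.8% of all windows. The window of Jun held TGACATCA at positions -45 to -38 and TTACCTCA at positions -164 to -157 from the start, and these were in 2.93% and 0.728% of all windows. The window of Fosl2 held none of the motifs searched, and is not printed because it lies inside the first exon of the GENCODE transcript. RefSeq and GENCODE starts differ for several members, so not every window lies just upstream of the GENCODE gene. The RefSeq start was 671 bases downstream of the GENCODE gene start for Fosl2, 567 for Batf3, 34706 for Atf3, 51 for Batf and 6 for Fosb. It was upstream of the GENCODE gene start for Jund (-1210) and Junb (-30). For Fos and Jun the starts were the same. A match is a description of letters and not a site in use.

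Fosl2, which encodes FRA-2, was the one AP-1 gene called, and it rose. Its level was 43.8 scaled FPKM in the tumour library, against 1.11 in lymphoid library 1 and 0.869 in lymphoid library 2. The tumour value lay far outside the lymphoid pair, at 39.5-fold of lymphoid library 1 and 50.4-fold of lymphoid library 2. In such bulk RNA a change in the number of expressing cells and in the RNA of each cell cannot be told apart. The log2 change of scaled FPKM plus 1 was 4.50 with SE 0.16 (limma with Benjamini-Hochberg adjustment over all tested genes, adjusted p = 0.000138). With the estimated counting error of the tumour library added the adjusted p was 0.00257, and the call was kept in every alternative that gave a test, with adjusted p of at most 0.0109. The gene lies on chromosome 5 at 32135801 to 32157842 (GRCm38, ENSMUSG00000029135.10). Its annotated coding transcript is 6537 nt long, so that the value rested on about 543 tumour fragments, against 108 and 118 lymphoid ones from far deeper libraries. Among 9108 tested protein-coding genes the tumour level stood at percentile 96.2, against 5.82 and 3.02 in the lymphoid libraries. By log2 change Fosl2 ranked 2 among those genes, behind Vmn2r55, a vomeronasal receptor gene named after its values were seen. Among all 9800 tested genes, of any type, it ranked 17.

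Fos encodes the founding FOS protein, a product of immediate-early transcription whose RNA is short-lived. It was at 14.1 scaled FPKM in the tumour library, against 18.4 and 26.6 in lymphoid libraries 1 and 2 (chromosome 12, 85473890 to 85477273). The tumour value was below both, but the lymphoid libraries differed from each other by more than lymphoid library 1 differed from tumour. The log2 change of -0.61 (SE 0.25) was not called (limma adjusted p = 0.142), and with library totals it was 0.090, so its direction depends on the scaling.

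Fosb, a paralogue of Fos with a like transactivation domain, was at 7.74 in the tumour library, against 8.25 and 7.55 scaled FPKM in the lymphoid libraries (chromosome 7, 19302696 to 19310051). The tumour value lay between them, and the log2 change was -0.03 (SE 0.16, limma adjusted p = 0.925), or 0.64 with library totals and -1.05 as deposited. Fosl1, which encodes FRA-1, was listed at 0 in the tumour library and in lymphoid library 1, and at 0.0286 scaled FPKM, about 1 fragment, in lymphoid library 2 (chromosome 19, 5447547 to 5455946). It was not tested. At the tumour depth a count of 0 allows up to 1.04 scaled FPKM for Fosl1 by an exact Poisson 95% interval, which covers counting error only.

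**Figure D1:**
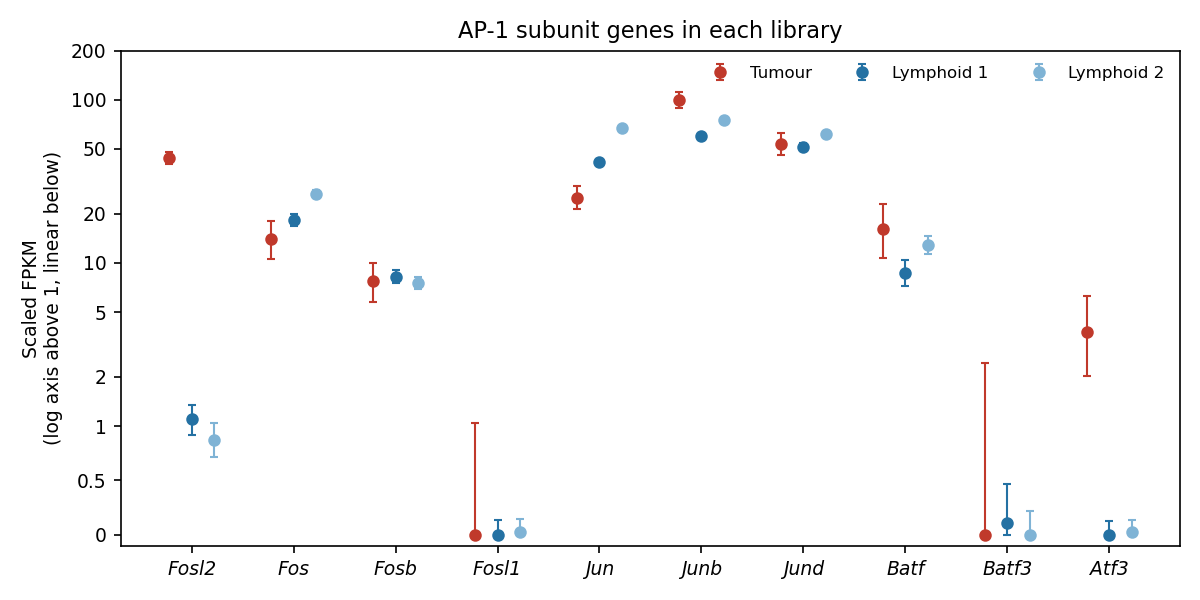
Scaled FPKM of the 10 AP-1 genes (y axis, logarithmic above 1 and linear below) in the tumour library and lymphoid libraries 1 and 2. Points are the values and bars exact Poisson 95% intervals from estimated fragments, so they cover counting error only. Fosl2 stands at 43.8 in tumour, against 1.11 and 0.869, while the tumour points of Fos and Jun lie below both lymphoid points, for Fos only under some scalings.

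Of the JUN genes none was called after median-of-ratios scaling. Junb, which encodes a JUN protein that forms dimers with FOS and BATF proteins in T cells, was at 99.9 scaled FPKM in the tumour library, against 59.9 and 75.7 in the lymphoid libraries (chromosome 8, 84974484 to 84978718). The tumour value was above both, with a log2 change of 0.56 (SE 0.23, limma adjusted p = 0.135). As deposited the Junb change was -0.60, so its direction depends on the scaling.

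Jun encodes the target of JNK kinases that gives the family its name. It was at 25.1 in the tumour library, against 41.8 and 67.5 scaled FPKM in the lymphoid libraries (chromosome 4, 95049034 to 95052222). The tumour value was below both, and the lymphoid libraries also lay far apart. Its log2 change of -1.05 (SE 0.31) missed the threshold (limma adjusted p = 0.0653). It was called lower with upper-quartile scaling (limma adjusted p = 0.0363) and as deposited (limma adjusted p = 0.00357), but not with library totals or with counting error added (limma adjusted p = 0.407 and 0.204).

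Jund, the JUN gene known for steady expression in resting cells, was at 53.6 in the tumour library, against 51.6 and 61.7 scaled FPKM in the lymphoid libraries (chromosome 8, 70698949 to 70700616). The tumour value lay between them, with a log2 change of -0.07 (SE 0.21, limma adjusted p = 0.832), or 0.66 with library totals and -1.23 as deposited.

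Batf encodes a small bZIP protein without a transactivation domain, which T cells need for Th17 and effector programmes. It was at 16.2 scaled FPKM in the tumour library, against 8.69 and 12.8 in the lymphoid libraries (chromosome 12, 85686669 to 85709087). The tumour value was above both, on about 29 fragments, and the log2 change of 0.57 (SE 0.25) was not called (limma adjusted p = 0.161). As deposited the Batf change was -0.52. Batf3, known for its role in CD8a+ dendritic cells, was listed at 0 in the tumour library, against 0.107 scaled FPKM, about 1 fragment, in lymphoid library 1 and 0 in lymphoid library 2, and was not tested (chromosome 1, 191097847 to 191108945).

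Atf3, a stress-induced bZIP gene, was at 3.75 scaled FPKM in the tumour library, on about 14 fragments, against 0 and 0.0245 in lymphoid libraries 1 and 2, where 0.0245 is about 1 fragment (chromosome 1, 191170296 to 191218039). Its exact Poisson 95% interval in the tumour library was 2.04 to 6.25 scaled FPKM. Its mean over the 3 libraries was under 1 FPKM, so it was not tested. Without a filter on low values it was called higher (log2 change 2.23, limma adjusted p = 0.0108), in a fit that called 7364 of 20968 genes higher. Of all 1419 odorant and vomeronasal receptor genes in the tables, 7 (0.493%) were at or above the tumour level of Atf3 in the tumour library, the highest being Vmn2r55 at 76.2 scaled FPKM.

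Of the 10 members 7 passed the filter on low values, of which 1 was called higher and 0 lower. That is 14.3% of 7, against 12.7% of all tested genes called higher, so the number of members called was close to the background. By a rule of at least 2-fold against each lymphoid library, 1 of 7 was higher and 0 lower, against 8.76% and 5.96% of all tested genes. Apart from Fosl2 the log2 changes of tested members ran from -1.05 to 0.57. With counting error added Fosl2 was the member still called, against 3.62% of genes called higher and 0.32% lower.

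**Figure D2:**
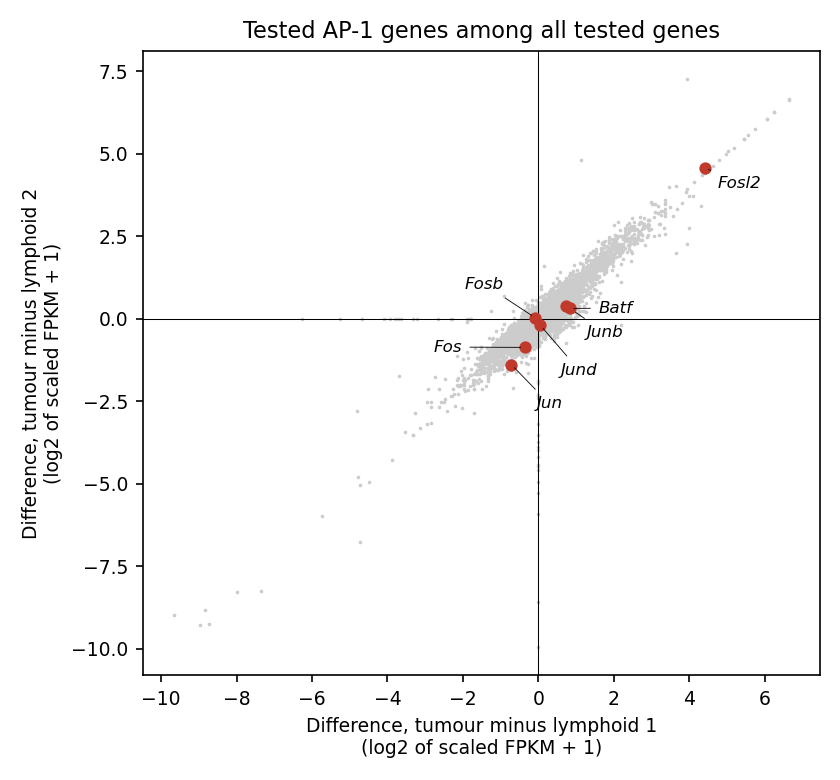
Difference in log2 of scaled FPKM plus 1 between the tumour library and lymphoid library 1 (x axis) and lymphoid library 2 (y axis) for the 9800 tested genes (grey), with the 7 tested AP-1 genes in red. Fosl2 lies at 4.41 and 4.58, and the other 6 lie within the body of the tested genes. The axes share the tumour values, so points along the diagonal are partly given by construction.

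The make-up of AP-1 RNA was compared as each subunit's share of the summed FPKM of the 10 genes. FPKM is per length, and a share within a library does not depend on the scaling between libraries. With 1 tumour library the shares have no test, so the gap between the lymphoid libraries is given beside each difference. Fosl2 made up 16.6% of the sum in the tumour library, against 0.585% and 0.344% in the lymphoid libraries. Jun made up 9.50% in the tumour library, against 22.01% and 26.7%, a difference of -14.9 percentage points from the lymphoid mean, where the lymphoid libraries lay 4.69 points apart. Junb made up 37.8% in the tumour library, against 31.6% and 29.9%. Jund made up 20.3% in the tumour library, against 27.2% and 24.4%. The share of Fos was 5.34%, against 9.69% and 10.5%, and that of Fosb 2.93%, against 4.35% and 2.99%.

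Dominance of Fosl2 held among the FOS genes but not among AP-1 genes as a whole. Fosl2 was 66.7% of the summed FPKM of the 4 FOS genes in the tumour library, against 4.0% and 2.48% in the lymphoid libraries. Fos was the leading FOS gene in lymphoid cells, with 21.5% of that sum in the tumour library, against 66.3% and 75.9%. Fosb had 11.8% in the tumour library, against 29.7% and 21.6%. Shares of a sum fall for other genes where 1 gene rises. The level of Fosb itself lay between the lymphoid values, and the change of Fos was not called. The ratio of Fosl2 to Fos was 3.10 in the tumour library, against 0.0603 and 0.0327 in the lymphoid libraries.

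**Figure D3:**
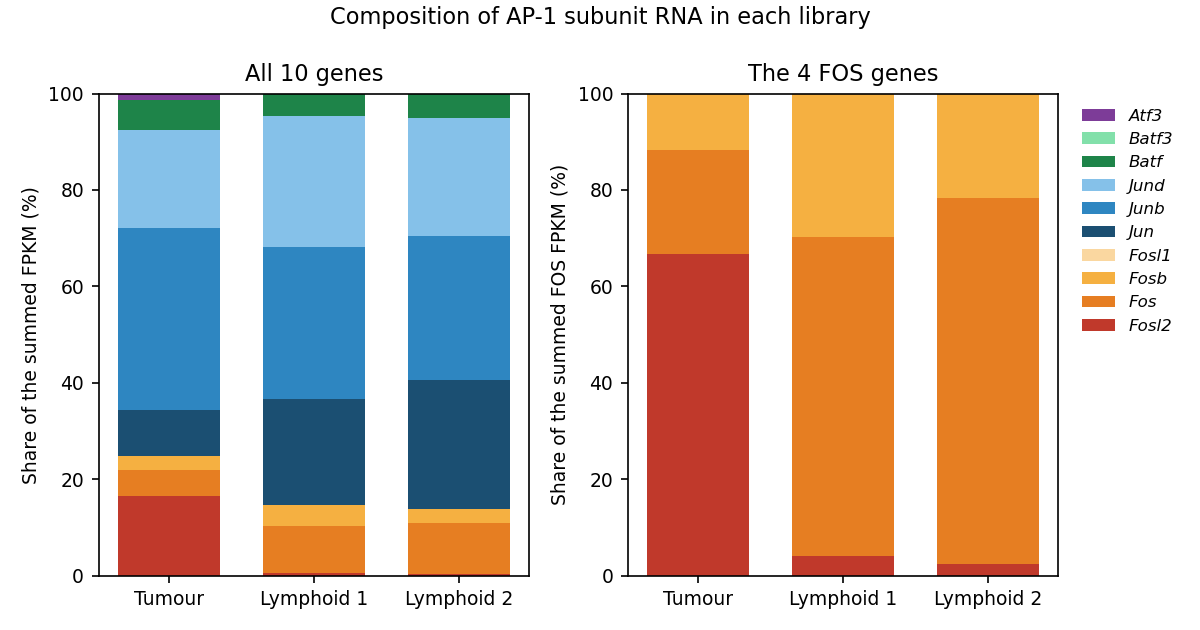
Share (%) of each gene in the summed FPKM of the 10 AP-1 genes (left) and of the 4 FOS genes (right), with 1 bar for the tumour library and 1 for each lymphoid library. Fosl2 takes 66.7% of the FOS sum in tumour, against 4.0% and 2.48%, and 16.6% of all AP-1 RNA, against 0.585% and 0.344%.

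The JUN family held the largest part of AP-1 RNA in every library, with 67.6% in the tumour library, against 80.7% and 81.1% in the lymphoid libraries. The FOS family held 24.8%, against 14.6% and 13.9%. The ratio of FOS to JUN sums was 0.367 in the tumour library, against 0.181 and 0.171, and with Fosl2 left out it was 0.122, against 0.174 and 0.167. The FOS sum was 65.7 scaled FPKM in the tumour library, against 27.8 and 35.0, while without Fosl2 it was 21.9, against 26.6 and 34.2. The higher FOS share of the tumour library was carried by Fosl2.

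Within the JUN family, Junb had 55.9% of the JUN sum in the tumour library, against 39.1% and 36.9%. Jun had 14.1%, against 27.3% and 32.9%, and Jund 30.0%, against 33.7% and 30.1%. The ratio of Junb to Jun was 3.98 in the tumour library, against 1.43 and 1.12. The summed JUN level, 178.7 scaled FPKM in the tumour library, lay between the lymphoid sums of 153.3 and 204.9. The ratio of Batf to Fos was 1.15 in the tumour library, against 0.472 and 0.483.

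Adding up the amounts by which shares were higher in one library than in another gives the percentage points by which the 2 compositions differ. The tumour library differed from lymphoid libraries 1 and 2 by 25.2 and 26.6 points, and the lymphoid libraries differed from each other by 6.03. With Fosl2 left out and shares taken over the other 9 genes, the tumour library still differed by 18.0 and 19.7 points, against 5.97 between the lymphoid libraries.

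In order of level the tumour library had Junb, Jund, Fosl2, Jun, Batf, Fos, Fosb and Atf3, with Fosl1 and Batf3 at 0. By counting error, Jund (46.0 to 62.5 scaled FPKM) and Fosl2 (40.2 to 47.7) had overlapping exact Poisson 95% intervals, as did Jun (21.3 to 29.5) and Batf (10.7 to 23.0), Batf and Fos (10.6 to 18.2), and Fosb (5.78 to 9.99) and Atf3 (2.04 to 6.25). In both lymphoid libraries Junb led, Jund and Jun came next in an order that differed between the libraries, and Fos, Batf, Fosb and Fosl2 followed in that order. Counted in fragments rather than per length, Fosl2 gave 543 in the tumour library and Junb 343.

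The other bZIP genes, a list of 42, include AP-1 relatives and competitors. Of the 28 tested, 4 were called higher and 1 lower, and 1 higher call, Crem, was left with counting error added. The 14.3% called higher compares with 12.7% of all tested genes, and the 3.57% left with counting error with 3.62%. Their median log2 change was 0.17, against -0.01 for all tested genes. Crem, which encodes cAMP-responsive repressors and activators, was at 34.7 scaled FPKM in the tumour library, against 1.86 and 1.18 in the lymphoid libraries, and rose by a log2 change of 3.84 (limma adjusted p = 0.000593). Jdp2, which encodes a repressor that pairs with JUN proteins, was at 4.13, against 0.487 and 0.915, on about 13 tumour fragments. Its log2 change of 1.60 lost its call when counting error was added. Before scaling Jdp2 was at 2.39 FPKM in the tumour library, against 0.631 and 1.22 in the lymphoid libraries. It passed the filter for testing through its tumour value, so its call, 1 of the 4, can be partly fixed in advance.

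Mafg, a small MAF gene, was called higher with a log2 change of 1.08, and Creb3, a membrane-bound bZIP gene, lower with -0.68, and both lost the call with counting error added (limma adjusted p = 0.162 and 0.430). Bach2, a bZIP repressor that competes with AP-1 at its sites in T cells, was at 4.50 scaled FPKM in the tumour library, against 2.96 and 3.15 in the lymphoid libraries, above both but not called (limma adjusted p = 0.0882). Maf was at 13.5, against 16.3 and 15.7, and was not called. Batf2 was at 1.58 in the tumour library, on about 4 fragments, against 0 in both lymphoid libraries, and was not tested.

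**Figure D4:**
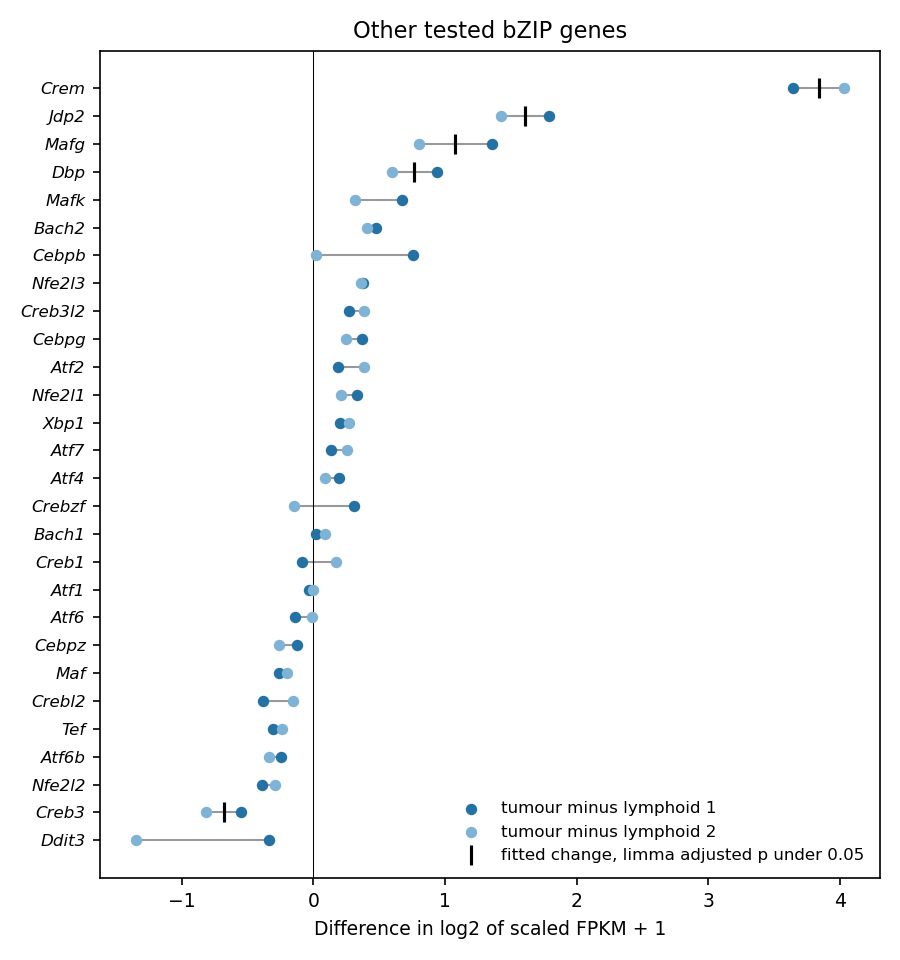
The 28 tested bZIP genes outside the AP-1 members, with the difference in log2 of scaled FPKM plus 1 between the tumour library and each lymphoid library (points joined by a line). Black ticks mark the fitted change of the 5 genes called by limma. Crem lies apart from the rest with a fitted change of 3.84.

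Genes upstream and around AP-1 were counted against the 12.7% of all tested genes called higher and 9.17% called lower. Of 29 tested genes of the MAP kinase cascade 1 was higher and 1 lower, which is 3.45% each, with 0 left once counting error was added. Map3k8, which encodes the kinase TPL2 that activates ERK, was at 5.64 scaled FPKM in the tumour library, against 3.17 and 3.53 in the lymphoid libraries, and Map2k7, which encodes a kinase of JNK, was at 6.22, against 9.81 and 10.9. Of 11 tested genes of serum response and ternary complex factors 1 was higher (9.09%), Mef2d, at 15.8, against 9.09 and 7.60. Its call was lost with counting error added. Of 9 partner genes for composite sites 0 were called. Ets1, the most abundant of them, was at 99.6 scaled FPKM in the tumour library, against 102.1 and 92.3 in the lymphoid libraries. Irf4 was at 2.97 in the tumour library, against 2.57 and 2.56, Irf8 at 2.03, against 0.878 and 1.49, and Nfatc1 at 20.9, against 26.5 and 23.9.

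Itch, a ubiquitin ligase for JUN proteins, was at 9.41 scaled FPKM in the tumour library, against 11.0 in each lymphoid library, and was not called.

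Of 30 listed AP-1 target genes 12 were tested, 2 were called higher (16.7%, against 12.7% of all tested genes) and 1 lower (8.33%, against 9.17%), and their median log2 change was 0.02. Gzmb, which encodes granzyme B, rose, with 11.4 scaled FPKM in the tumour library, against 0.839 and 1.16 in the lymphoid libraries (log2 change 2.64, limma adjusted p = 0.000883), and was called with counting error added. Fasl was called higher (27.0, against 15.3 and 12.4) and Ifng lower (4.53, against 12.9 and 12.0), and neither was called when counting error was added (limma adjusted p = 0.138 and 0.205). In human adult T-cell leukaemia FRA-2 with JUND is known to drive CCR4, MYB, MDM2 and BCL6. Of the 4 mouse genes Bcl6 (6.80 in the tumour library, against 2.50 and 2.29) and Myb (9.15, against 3.61 and 3.88) were called higher, while Ccr4 (5.43, against 5.47 and 4.83) and Mdm2 (8.85, against 9.82 and 10.7) were not. The calls of Bcl6 and Myb ended with counting error added (limma adjusted p = 0.0659 and 0.0688).

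Other immediate-early genes, which tissue dissociation can also raise, were described beside the members. Of 22 tested, 6 were called higher and 0 lower, and 4 of the higher calls were left with counting error added. These are 27.3%, against 12.7% of all tested genes, and 18.2%, against 3.62%, and no test of the list was made. Their median log2 change was 0.19. Nr4a1 was at 29.0 scaled FPKM in the tumour library, against 2.13 and 2.37 in the lymphoid libraries, Nr4a3 at 20.4, against 2.33 and 2.44, and Dusp5 at 47.1, against 10.7 and 12.1, and all 3 rose. Egr1 (9.31, against 8.06 and 8.29) and Ier2 (33.2, against 28.5 and 34.5), picked after their values were seen, were not called. Of 13 heat-shock genes 1 was called higher (7.69%), the co-chaperone gene Bag3 (4.84, against 1.58 and 1.67), and that call ended with counting error added (limma adjusted p = 0.125). Whether dissociation had a part in the levels of Fosl2 or Atf3 was not tested.

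The genes whose pattern was most like that of Fosl2 were the 6 with the smallest distance between their differences in log2 of scaled FPKM plus 1 from the 2 lymphoid libraries, over 3 libraries. They were Mir24-2, Mir34a, Mir501, Mir551b, Ramp3 and Mirlet7a-1, at distances from 0.160 to 0.700. The 5 microRNA gene rows were at 0 in both lymphoid libraries and at 19.4 to 30.6 scaled FPKM in the tumour library, on 4 to 5 estimated fragments each. Ramp3, which encodes a subunit of receptors for adrenomedullin, was at 26.4 in the tumour library, against 0.580 and 0.537.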

How the data were processed

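RNA was measured in 1 tumour and 2 lymphoid libraries. Per the labels' protocols, 12 µl of total RNA, depleted of ribosomal RNA, went into stranded libraries read as 75 bp pairs. The submitters' processing notes name mm10, kallisto and DESeq2, without roles; the program that made the values is not given in the sources used here. FPKM, as the unit of the deposited values, is inferred, since their sums differ between libraries (279397, 955281 and 1175316 for tumour, lymphoid 1 and lymphoid 2) and the header has the style of Cufflinks tables. Of 23832 rows, the one with the highest mean was kept for each symbol. Median-of-ratios size factors were 0.579, 1.29 and 1.33 in the same order.

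Genes averaging 1 FPKM or more were tested with limma 3.58.1 (R 4.3.3; moderated variances with a trend on the mean) using log2(scaled FPKM + 1), and the script was tested on simulated data. A fold change on this scale understates the change of low genes. Fragments were estimated from the value of FPKM times length shared, within 3%, by the most genes, among those under 2 FPKM whose only annotated transcript reaches 1000 nt. That value was 305.7, 87.3 and 64.0 for tumour, lymphoid 1 and lymphoid 2. The added counting error is the Poisson error of those tumour fragments on the log scale, for the 9689 tested genes with a length. Coordinates and lengths are from GENCODE M21 on GRCm38, of which mm10 is another name. Per-list counts use p-values adjusted over all tested genes. The genes named are the 10 members, the 6 nearest to Fosl2, for each list up to 3 genes called in either direction (failing that, the most abundant) and 9 genes of interest (Bach2, Jdp2, Irf4, Irf8, Nfatc1, Batf2, Crem, Maf and Itch). The members, lists and tests were chosen with earlier results of these data known. The counts of the list on AP-1 protein turnover and coactivators are not reported here.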

Additional observations from a re-analysis of the deposited data

How the results depend on the processing

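Fosl2 kept its rise and its call under every alternative with a test, with log2 changes from 3.03 (pseudocount 5) to 5.34 (pseudocount 0.1), and was at 4.41 and 4.58 when 1 lymphoid library was left out, which leaves no test. The number of members called higher was 1, but 3 with library totals (Junb and Batf added) and 2 with no filter (Atf3 added). The number called lower was 0, but 4 as deposited (Fos, Fosb, Jun and Jund) and 1 with upper-quartile scaling (Jun). The change of Junb was -0.60 and of Batf -0.52 as deposited, and those of Fos, Fosb and Jund were 0.090, 0.64 and 0.66 with library totals; these shifts follow the median of all tested genes, -0.96 as deposited and 0.62 with library totals.

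All genes called higher and lower numbered 465 and 7620 as deposited (5.75% of calls higher, against 58.1% after scaling), 4122 and 288 with library totals (93.5%), 211 and 191 under a filter at 5 FPKM, 351 and 31 with counting error added, and 7364 higher with no filter. Genes past 2-fold numbered 333 and 5421 as deposited, 2416 and 196 with library totals, 8218 and 1518 with no filter and 185 and 189 under a filter at 5 FPKM. Over the FOS and JUN families alone, the tumour minus lymphoid share was 17.4 points for Fosl2 and 8.58 for Junb, since fewer genes enter the sum. Leaving out a lymphoid library gave 62.7 to 64.2 points for Fosl2 among FOS genes and 15.99 to 16.23 among all 10, -17.2 to -12.5 for Jun and 6.26 to 7.87 for Junb. Subtracting the receptor-gene background, chosen after seeing the data, moved these shares by less than the lymphoid SD. The 1 tumour library could not be left out, and its depth limits values under about 10 fragments. No paired analysis was possible because the tumour group has 1 library with no number.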

Other observations

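Among protein-coding genes alone, a choice made after the values were seen, the 5 nearest to Fosl2 by the same distance were Ramp3, Vmn2r55, Vmn1r65, Crem and A630089N07Rik. Vmn2r55, a vomeronasal receptor gene, was at 76.2 scaled FPKM in the tumour library, against 1.38 and 1.26 in the lymphoid libraries, on about 354 tumour fragments. Vmn1r65 was at 29.6, against 0.769 and 1.32. A630089N07Rik was at 546.5, against 33.5 and 40.7. The 5 were chosen for differences like those of Fosl2 in these same libraries, so their rise is given by the choice and is no added support.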
